A study of Rattus norvegicus with 6 samples.

Results

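The genes described here are 31 markers of leukocytes and macrophages, measured in the renal cortex of rats given dipropylene glycol (DPG), a glycol solvent. They are 31 of 15645 genes with a symbol on the array, and they were taken as every non-control probe whose RefSeq transcript belongs to one of them, which gave 51 probes. The 6 male Sprague-Dawley (Crl:CD(SD)) rats were 5 weeks old at purchase and ate a basal diet. The 3 control rats received water and the other 3 received DPG at 1000 mg/kg/day, both for 4 weeks, and RNA of 1 animal went on each one-colour Agilent array. The labels do not state the route of dosing. Levels are log2 signals after subtraction of the log2 of each array's 75th percentile, so a level of 0 is the signal at that percentile. A level belongs to its probe, and levels of different genes are not compared.

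Resident macrophages lie between the tubules and around the glomeruli of the kidney, where they take up debris and present antigen, and T cells and a few B cells patrol the same space. Macrophages are built under the transcription factor PU.1, encoded by Spi1, and depend on signals through the receptor Csf1r. Leukocyte genes in whole cortex are thus read from the whole dissected piece of tissue, its immune cells next to a large excess of tubule cells. Which cells gave a signal was not measured. In whole tissue, fewer cells of a type and less RNA per cell cannot be told apart.

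RefSeq promoters (GRCr8) were in the table used here for 22 of the 31 genes. They are given as a description of sequence, and a link between the motifs and the signals was not tested. GAGGAA, the core of the site that PU.1 binds, was searched on both strands over 300 bases, 250 before the start and 50 after it. It occurred in 14 of the 22 promoters (63.6%), against 27.5% of all 27457 promoters of that length. GATTGG, the Y box of MHC class II promoters, was searched in the same way and occurred in 5 of 22 (22.7%), against 15.3% of all. These were RT1-Da, RT1-Ba, Cd53, Cd68 and Cd163, while Cd74, counted here with the MHC class II genes, had no match. No matches of the motifs overlapped each other in the 250 bases before the start. The 120 bases before the start are given below for 5 genes with GAGGAA and for both MHC class II alpha chain genes with GATTGG. Capitals mark the matches, and TTCCTC is GAGGAA on the other strand. The letters alone do not show that a site is bound.
Lyz2 (chr7:54798012-54798131, minus strand): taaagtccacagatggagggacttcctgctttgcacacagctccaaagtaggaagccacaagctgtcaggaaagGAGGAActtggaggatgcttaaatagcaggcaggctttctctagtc
Itgam (chr1:192089472-192089591, plus strand): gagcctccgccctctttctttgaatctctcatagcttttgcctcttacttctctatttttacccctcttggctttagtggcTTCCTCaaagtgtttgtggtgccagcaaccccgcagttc
Mrc1 (chr17:82157605-82157724, plus strand): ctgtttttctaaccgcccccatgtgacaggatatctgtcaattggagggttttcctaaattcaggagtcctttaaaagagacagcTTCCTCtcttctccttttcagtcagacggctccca
Laptm5 (chr5:148371760-148371879, plus strand): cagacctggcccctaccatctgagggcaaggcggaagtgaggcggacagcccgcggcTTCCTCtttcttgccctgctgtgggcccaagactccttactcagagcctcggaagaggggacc
Cd53 (chr2:197087897-197088016, minus strand): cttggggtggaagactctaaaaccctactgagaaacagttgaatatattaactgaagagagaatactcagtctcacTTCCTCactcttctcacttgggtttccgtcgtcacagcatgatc
RT1-Da (chr20:4515295-4515414, plus strand): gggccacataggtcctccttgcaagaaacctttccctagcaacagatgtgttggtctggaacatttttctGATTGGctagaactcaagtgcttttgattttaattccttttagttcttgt
RT1-Ba (chr20:4576937-4577056, plus strand): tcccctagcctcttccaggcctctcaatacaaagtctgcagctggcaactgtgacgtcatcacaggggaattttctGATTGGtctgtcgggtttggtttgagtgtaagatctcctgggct
The match nearest to the start began at position -46 in Lyz2, -39 in Itgam, -35 in Mrc1, -63 in Laptm5 and -44 in Cd53, counted back from the base before the start. The Y box began at -50 in RT1-Da and -44 in RT1-Ba.

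Of the 31 genes, 28 had a probe that all 3 arrays of the control or of the DPG group detected well above background, and 26 of these were above background on all 6 arrays. No probe of the scavenger receptor gene Cd163 or of the MHC class II gene RT1-Ba was well above background on any array, so these 2 genes have no measured level. Itgam, which encodes the CD11b integrin chain of monocytes and neutrophils, was above background on 2 of 3 control arrays and on 0 of 3 DPG arrays. No fold is given, since control 1 was not well above background either.

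No leukocyte gene differed between the groups after adjustment. limma with Benjamini-Hochberg adjustment called 0 of 28 genes, as it called 0 of 29647 features (0%), and the smallest adjusted p among the 28 was 0.350. At an unadjusted p of 0.05 limma passed 2 genes as higher in DPG, Cd3e and Mrc1, and 1 as lower, Cd79b. Over all features 6.68% were higher and 5.7% lower at that p. For 2 of 28 genes, Mrc1 and Cd79b, every DPG value lay on the same side of every control value, against 19.7% of all features. The log2 fold change, DPG over control, was above 0 for 21 of 28 genes, against 50.8% of features, and its median was 0.13 against 0.0035 over all features. With 3 rats a side, the smallest two-sided p of an exact permutation test is 0.1. The control arrays shared slide 1 and scan 1, the DPG arrays slide 2 and scan 2, and so the treatment cannot be told apart from the slide.

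**Figure D1:**
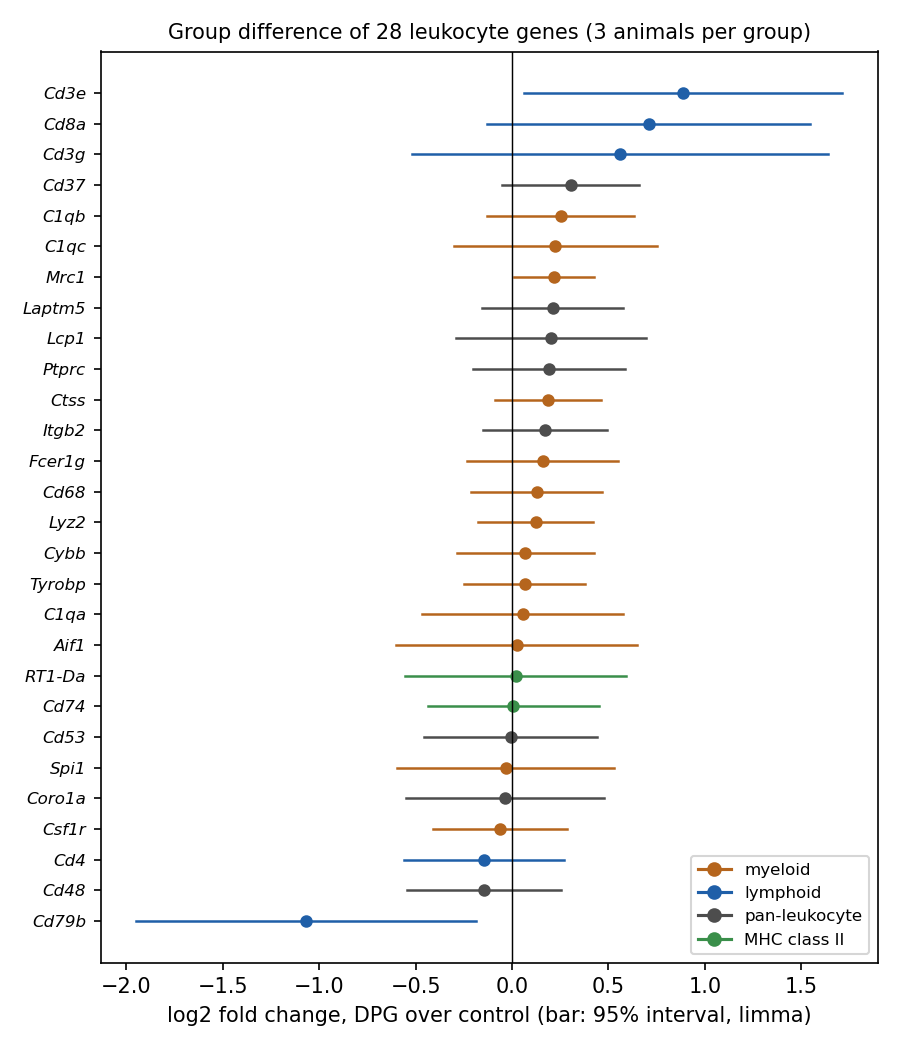
Log2 fold change of each of the 28 tested genes, DPG over control (x axis), with 95% intervals from limma as bars and the gene class as colour. The intervals of Cd3e, Mrc1 and Cd79b do not reach 0, and the T cell genes and Cd79b have the widest intervals.

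The macrophage genes stood close to their control levels as a group, with 11 of 13 tested myeloid genes above 0 and a median log2 fold change of 0.12. Mrc1, the mannose receptor of tissue macrophages, read -2.72, -2.80 and -2.80 in controls 1 to 3 and -2.47, -2.70 and -2.50 in DPG 1 to 3. All DPG arrays lay above all controls, and DPG 2 lay just above the highest of them. DPG over control, this came to a log2 fold change of 0.22 ± 0.08 (SE), 1.16-fold in 3 rats against 3, with a limma adjusted p of 0.394. Its second probe was not well above background on all 3 arrays of either group.

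C1qa, C1qb and C1qc encode the chains of C1q, the first component of the classical complement pathway, which tissue macrophages make. The level of C1qb was 3.25, 3.36 and 3.26 in the controls and 3.72, 3.20 and 3.72 in DPG 1 to 3. DPG 1 and DPG 3 stood above every control, and DPG 2 stood below every control. Its log2 fold change was 0.25 ± 0.16 (SE), its other probe also read 0.25, and under normexp it was 0.16. C1qa, at 0.06 ± 0.21, and C1qc, at 0.22 ± 0.22, had the same split, with DPG 1 and DPG 3 above the control arrays and DPG 2 below them. The second probe of C1qa had 0.16 and that of C1qc 0.08. In C1qa the levels were 2.03, 2.40 and 2.22 in the controls and 2.42, 1.83 and 2.57 in DPG 1 to 3.

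Other phagocyte genes were read next. Lyz2, the lysozyme gene of macrophages and neutrophils, read 6.13, 6.38 and 6.23 in the controls and 6.43, 6.16 and 6.52 in DPG. This brightest probe of Lyz2 had a log2 fold change of 0.12, and its second probe had -0.0029. Cd68, a lysosomal glycoprotein gene of macrophages, read 0.98, 1.08 and 0.97 in the controls and 1.13, 0.89 and 1.41 in DPG. In both, DPG 3 was the highest array and the group intervals included 0, from -0.18 to 0.42 for Lyz2 and from -0.21 to 0.47 for Cd68 (95%, limma). Csf1r, the receptor that keeps macrophages alive, read -1.14, -1.11 and -0.97 in the controls and -0.96, -1.43 and -1.02 in DPG, so that DPG 2 alone stood apart. Spi1, the gene of PU.1 itself, was lowest in DPG 2 at -4.32 and highest in DPG 3 at -3.59, with a log2 fold change of -0.03 ± 0.23 (SE). Ctss, the lysosomal protease cathepsin S that trims the invariant chain, had 0.19 ± 0.11, and the adaptor chain genes Fcer1g and Tyrobp had 0.16 ± 0.16 and 0.07 ± 0.13. Cybb, the catalytic subunit of the phagocyte NADPH oxidase, had 0.07 ± 0.15. Aif1, a calcium-binding protein gene used as a macrophage marker, had 0.02 ± 0.26. Its brightest probe was 2.40 in control 1 and 3.32 in control 2, while its other probes spanned 2.16 to 2.59 and 2.67 to 2.99 over the controls, and one of them read -0.05.

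The T cell genes Cd3e, Cd8a and Cd3g had the largest differences of the 31 genes in the upward direction. In each of them the DPG and control arrays overlapped, and none passed after adjustment. Cd3e, a chain of the T cell receptor complex, read -5.53, -4.95 and -5.54 in controls 1 to 3 and -4.36, -5.11 and -3.89 in DPG 1 to 3. DPG 1 and DPG 3 were above every control, and DPG 2 was below control 2. The log2 fold change was 0.89 ± 0.34 (SE), 1.85-fold, with a limma adjusted p of 0.386. The 1 probe of Cd3e passed detection in 2 of 3 controls and all DPG rats, and it entered the test through the DPG group, where it was higher. Cd3g, another chain of the complex, read -2.03, -0.94 and -1.66 in the controls and -0.80, -1.80 and -0.35 in DPG, a log2 fold change of 0.56 ± 0.44. Cd8a, a coreceptor of cytotoxic T cells, read -5.28, -4.50 and -4.44 in the controls and -3.84, -4.63 and -3.62 in DPG, a log2 fold change of 0.71 ± 0.34. In all 3 genes the signal of DPG 1 was between 1.67 and 1.98 times the geometric control mean and that of DPG 3 between 2.18 and 2.73 times. DPG 2 stood at 1.17, 0.84 and 1.08 times the control mean for Cd3e, Cd3g and Cd8a. Under normexp background correction the log2 fold change was 0.37 for Cd3e and 0.30 for Cd8a, and 0.57 for Cd3g.

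Cd4, a coreceptor of helper T cells that rat macrophages also carry, was not among the higher genes, at -0.14 ± 0.17 (SE). Its levels were -3.43, -3.07 and -3.24 in the controls and -3.38, -3.69 and -3.12 in DPG, and its second probe read 0.11.

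Cd79b, a signalling chain of the B cell receptor, had the largest difference of the 28 genes. It read -4.42, -4.29 and -4.49 in the controls and -5.19, -6.31 and -4.91 in DPG, below every control in all 3 DPG rats. The log2 fold change was -1.07 ± 0.36 (SE), 2.10-fold lower, with a limma adjusted p of 0.350. Its 1 probe was well above background on 2 of 3 DPG arrays and entered the test through the control group, where it was higher. Its size depended on the background correction, with a log2 fold change of -0.25 under normexp. Without DPG 2 it was -0.65, and without any 1 of the controls 0 genes passed an unadjusted p of 0.05 as lower. With probes above background on all 6 arrays only, neither Cd79b nor Cd3e was tested, and Mrc1 was the 1 gene left at an unadjusted p of 0.05.

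The genes shared by all leukocytes gave a middle picture, with 5 of 8 above 0 and a median of 0.18. Ptprc encodes CD45, the phosphatase on the surface of all nucleated blood cells. It read -0.21, 0.09 and -0.17 in the controls and 0.16, -0.20 and 0.33 in DPG, a log2 fold change of 0.19 ± 0.16 (SE). Its 5 probes ran from -0.24 to 0.21, so the direction for Ptprc depended on the probe. Laptm5, a lysosomal membrane protein gene of blood cells, read 2.83, 3.15 and 2.96 in the controls and 3.27, 2.92 and 3.38 in DPG, a log2 fold change of 0.21 ± 0.15. Cd37, a tetraspanin gene strongest in B cells, had 0.30 ± 0.14, with DPG 1 at -3.67 and DPG 3 at -3.69 above the controls and DPG 2 at -4.14 among them. The actin regulators Lcp1 and Coro1a had 0.20 ± 0.20 and -0.04 ± 0.21, the integrin chain Itgb2 0.17 ± 0.13, the tetraspanin Cd53 -0.01 ± 0.18 and the CD2 ligand Cd48 -0.15 ± 0.16. Cd48 was the exception to the shared pattern in this class. Its level was highest in control 2, at -0.30, and it lay between -0.84 and -0.68 in the DPG rats.

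The MHC class II genes, through which macrophages, dendritic cells and B cells show peptides to helper T cells, had nearly equal group means. Cd74, the invariant chain, read 4.81, 5.21 and 4.92 in the controls and 5.03, 4.67 and 5.27 in DPG, a log2 fold change of 0.01 ± 0.18 (SE) with a 95% interval from -0.44 to 0.45. RT1-Da, whose promoter is shown above, read 2.63, 2.98 and 2.51 in the controls and 2.82, 2.27 and 3.08 in DPG, a log2 fold change of 0.02 ± 0.23. In both genes DPG 2 was the lowest and DPG 3 the highest of the 6 arrays.

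**Figure D2:**
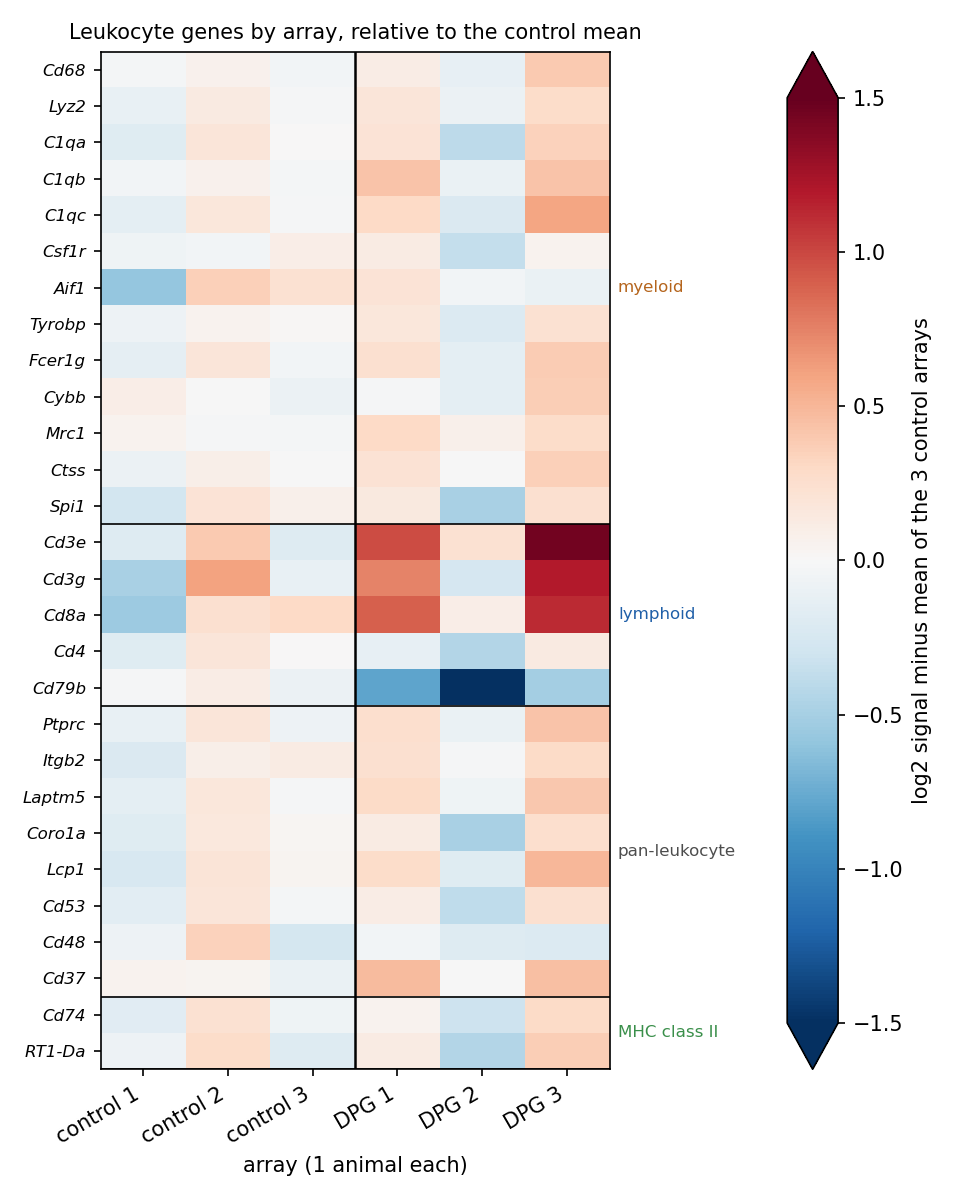
Log2 signal of each of the 28 tested genes (rows, by class) on each array (columns), minus the mean of the 3 control arrays, with colour from -1.5 to 1.5 and values beyond it at the end colours. Most rows are red in DPG 1 and DPG 3 and blue in DPG 2, and Cd79b is blue in all 3 DPG arrays.

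What the leukocyte genes had in common was the order of the animals. The signal was highest in DPG 3 for 20 of 28 genes, where 17.7% of all features had it, and lowest in DPG 2 for 15 of 28, where 18.4% of features had it. For 9 more genes the lowest array was control 1. DPG 2 was the lowest of the DPG arrays for 26 of 28 genes, against 35.3% of features. The exceptions were Aif1, whose brightest probe was lowest in DPG 3, and Cd48. Over the 45 kept probes of the 28 genes, which share targets, 32 were highest in DPG 3 and 28 lowest in DPG 2. The same animal order across so many genes of the same cells is 1 observation on 3 rats and not 28.

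**Figure D3:**
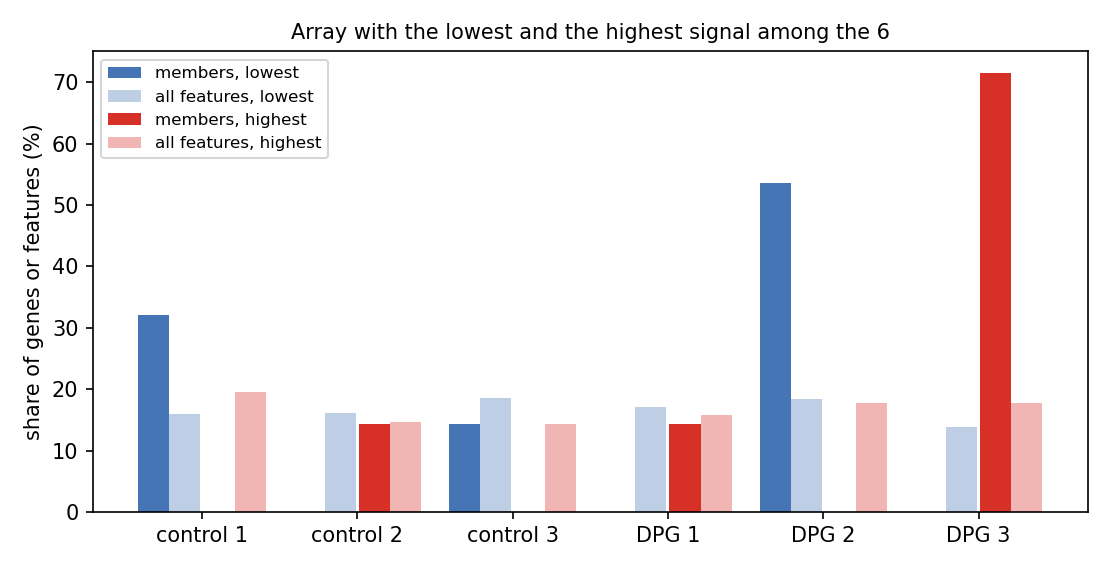
Share (%, y axis) of the 28 leukocyte genes (dark bars) and of all 29647 features (pale bars) that had their lowest (blue) or highest (red) signal on each of the 6 arrays (x axis). The leukocyte genes pile up at DPG 2 for the lowest and DPG 3 for the highest signal, while all features spread over the 6 arrays.

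The spread within the DPG group was accordingly wider. The SD among DPG rats exceeded that among control rats for 25 of 28 genes, where 50.5% of features showed this. The median SD of the 28 genes was 0.28 in DPG and 0.17 in control, and over all features it was 0.12 in both groups. The median standard error of the group difference was 0.17 for these genes against 0.11 for all features.

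Scores put the same values together by class. A score is the mean over the tested genes of a class of the log2 signal minus the control mean, and it was given no test, since the genes were chosen with results known. The myeloid score was -0.12, 0.11 and 0.01 in controls 1 to 3 and 0.20, -0.17 and 0.30 in DPG 1 to 3. The pan-leukocyte score, of the 8 shared genes, was -0.13, 0.17 and -0.04 in the controls and 0.22, -0.18 and 0.30 in DPG. The lymphoid score was -0.28, 0.30 and -0.02 in the controls and 0.34, -0.45 and 0.68 in DPG, with Cd79b pulling against the T cell genes. The MHC class II score was -0.12, 0.25 and -0.13 in the controls and 0.08, -0.37 and 0.33 in DPG. The DPG mean lay above the control mean by 0.11 in the myeloid, 0.11 in the pan-leukocyte, 0.19 in the lymphoid and 0.01 in the MHC class II class, less than the SD among the DPG rats in each (0.25, 0.25, 0.58 and 0.36). In each class DPG 3 was highest and DPG 2 lowest, and the range of the DPG rats enclosed that of the controls. Over Cd3e, Cd3g and Cd8a alone, a grouping made after their values were seen, the mean shift was 0.87, 0.03 and 1.25 in DPG 1 to 3, against -0.41, 0.41 and -0.0033 in the controls.

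**Figure D4:**
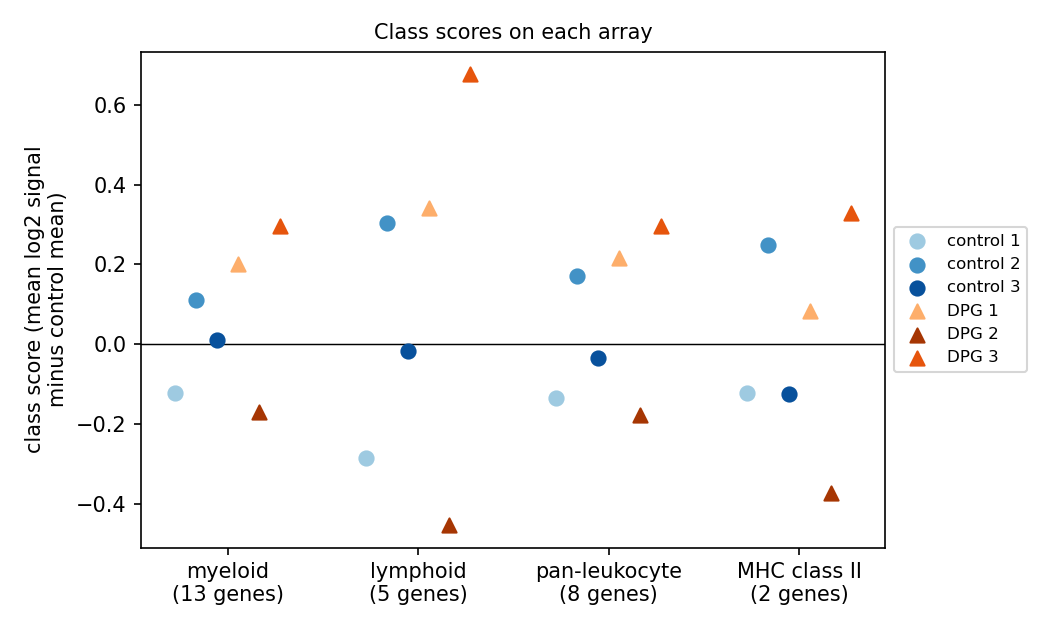
Score of each class (mean log2 signal over its tested genes minus the control mean, y axis) on each of the 3 control (circles) and 3 DPG (triangles) arrays. In all 4 classes DPG 3 is the highest and DPG 2 the lowest point, from -0.45 to 0.68 in the lymphoid class.

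Because DPG 2 stood apart from the other DPG rats, each animal was left out in turn. DPG 2 was the lowest DPG array for 26 of the 28 genes, so leaving it out was bound to raise most fold changes. The shares over all features do not allow for this, since DPG 2 was the lowest DPG array for 35.3% of them. Without DPG 2, 26 of 28 genes lay above 0 (51.4% of features did), their median log2 fold change was 0.26, and 10 passed an unadjusted p of 0.05 as higher, where 5.26% of features did. The groups did not overlap for 18 of 28 genes without DPG 2, against 29.1% of all features. Cd3e then had 1.22 ± 0.25 (SE), Cd8a 1.01 ± 0.29 and C1qb 0.43 ± 0.08, and 0 of 28 passed the adjusted threshold (smallest limma adjusted p = 0.465). Without DPG 3 the median was 0.04 and 15 of 28 genes lay above 0, with 0 higher at an unadjusted p of 0.05. Without control 2 the median was 0.19 with 25 genes above 0, and without control 1 it was 0.07 with 17. The count of genes passing as higher at that p was 0 without control 1, control 3 or DPG 1, and 1 without control 2.

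Leukocyte genes outside the 31 were then read from lists of known markers. Of 29 tested macrophage, monocyte and dendritic cell genes 17 were above 0 with a median of 0.02. At an unadjusted p of 0.05, 0 passed in either direction, where 6.68% of all features were higher and 5.7% lower. The genes of this list with the smallest p were Cd86, a costimulator, at 0.43 ± 0.21 (SE), the NADPH oxidase subunit Cyba at -0.21 ± 0.11, and the scavenger receptor Msr1 at -0.44 ± 0.25. Cd86 was detected in 2 of 3 controls and all DPG rats, so it was tested through the DPG group, and under normexp it had 0.17. The list was again lowest in DPG 2 for 13 of 29 genes and highest in DPG 3 for 18 of 29, and its mean shift was 0.06, -0.18 and 0.23 in DPG 1 to 3.

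Of 20 other T cell and natural killer cell genes tested, 17 were above 0 with a median of 0.30, and 1 passed an unadjusted p of 0.05 as higher, where 6.68% of all features did. The 3 below 0 were Il7r at -0.45 ± 0.28 (SE), Gzma at -0.16 ± 0.21 and Gzmb at -0.09 ± 0.19, named after their values were seen. The gene that passed was Gzmk, a granule protease of cytotoxic cells, which read -3.34, -3.23 and -3.00 in the controls and -2.49, -2.81 and -2.66 in DPG. All DPG rats lay above all controls, DPG 2 included, with a log2 fold change of 0.54 ± 0.13 (SE), 1.45-fold, and a limma adjusted p of 0.269. Klrd1, a natural killer receptor chain gene, also did not overlap between groups, at 0.31 ± 0.15. It was above background on 2 of 3 control arrays, so it was tested through the DPG group, where it was higher. The same held for Foxp3, named after its values were seen, at 0.71 ± 0.68. Il7r was above background on 2 of 3 DPG arrays and was tested through the control group, where it was higher. The groups did not overlap for 2 of the 20 genes, against 19.7% of all features. Under normexp Klrd1 had 0.12. Cd8b, the partner chain of Cd8a, had 0.64 ± 0.35. Its levels were -3.63, -2.58 and -2.79 in the controls and -2.19, -2.89 and -2.01 in DPG, the split seen in Cd8a, and under normexp it had 0.32. The mean shift of the list was 0.50, -0.11 and 0.42 in DPG 1 to 3, and -0.16, 0.22 and -0.06 in the controls.

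B cell genes pointed both ways. Of 7 tested B and plasma cell genes 4 were above 0, with a median of 0.01. The B cell adaptor Blnk had -0.13 ± 0.09 (SE). Mzb1, a chaperone of antibody-secreting cells, had 1.35 ± 0.54, and its probe was above background on 1 of 3 control arrays and all 3 DPG arrays. It was thus tested through the DPG group, where it was higher. Under normexp Mzb1 had 0.41. Of 7 tested MHC class II genes beside Cd74 and RT1-Da, 4 were above 0 with a median of 0.02. RT1-Db2, RT1-Db1 and RT1-DMb had the smallest p among them, with 0.24 ± 0.14, 0.22 ± 0.15 and 0.12 ± 0.09.

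Most neutrophil, mast cell and eosinophil genes went the other way from the T cell genes. Of 9 tested 7 were below 0, with a median of -0.17. At an unadjusted p of 0.05, 3 were lower, where 5.7% of all features were. The groups did not overlap for 3 of the 9, against 19.7% of all features. The 2 above 0 were Mmp9 at 0.25 ± 0.41 (SE) and Tpsab1 at 0.03 ± 0.08, named after their values were seen. S100a9, a calcium-binding protein that fills the neutrophil cytosol, read -1.66, -1.16 and 0.02 in the controls and -2.06, -2.76 and -2.36 in DPG. Its partner S100a8 read -2.97, -2.36 and -1.11 in the controls and -3.22, -3.94 and -3.62 in DPG. Every DPG rat was below every control for both, with 2.75-fold and 2.73-fold lower means and limma adjusted p of 0.326 and 0.350. Control 3 was the highest array for both, and under normexp S100a8 had -0.95. The defensin gene Np4 had -0.24 ± 0.09 (SE). No probe of the neutrophil genes Cxcr2 and Elane or of the mast cell and eosinophil genes Cpa3, Fcer1a, Ms4a2 and Epx was well above background on any array.

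Genes of chemokines, cytokines and adhesion molecules, which draw leukocytes into tissue, were lower as often as higher, with 11 of 24 above 0 and a median of -0.02. At an unadjusted p of 0.05, 1 was higher and 1 lower, where 6.68% and 5.7% of all features were. Mif, a cytokine that tubule cells make in quantity, had 0.24 ± 0.07 (SE), and the endothelial adhesion molecule gene Icam1 had -0.24 ± 0.09. The T cell attractant Cxcl10 had 0.38 ± 0.20, but chemokine genes of the list went both ways. Cxcl9 had 0.89 ± 0.49, Cxcl11 -0.37 ± 0.21 and Ccl21 -0.37 ± 0.24, named after their values were seen. The mean shift of this list was -0.03, -0.33 and 0.29 in DPG 1 to 3, the animal order of the leukocyte genes.

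**Figure D5:**
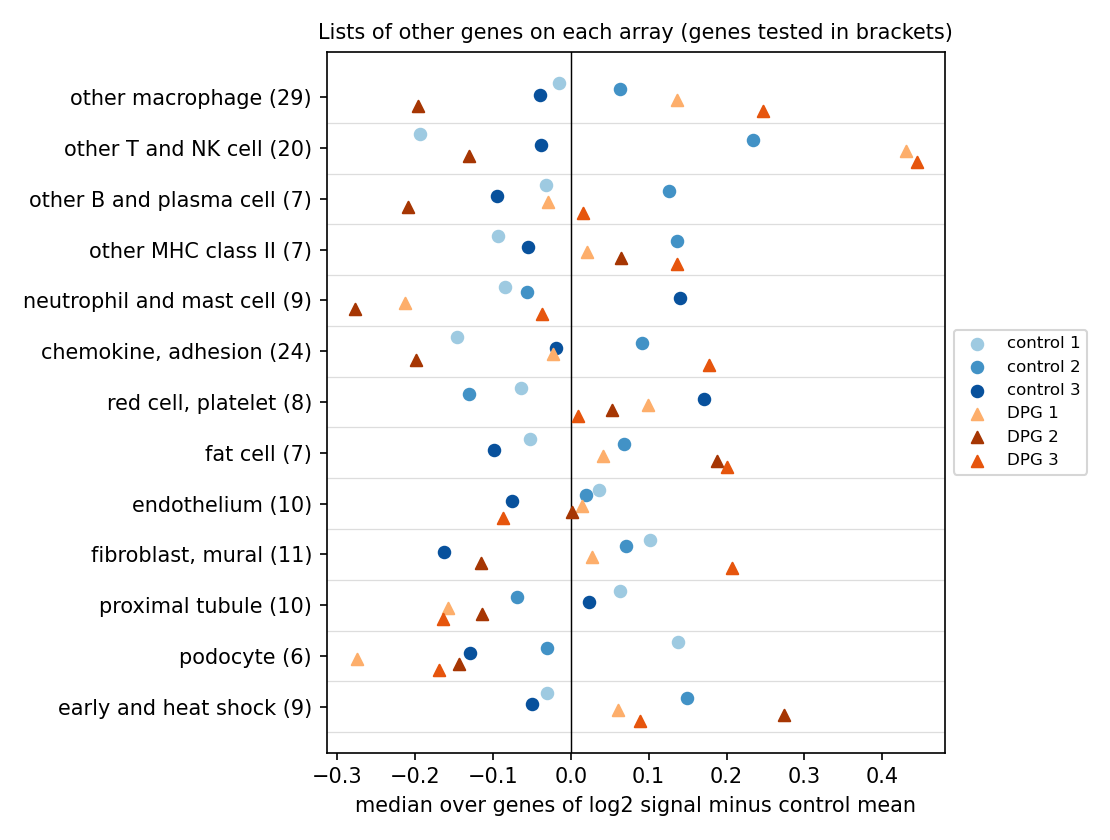
Median over the tested genes of each list (number in brackets) of the log2 signal minus the control mean (x axis) on each array, for genes outside the 31. DPG 2 is lowest among DPG points for the macrophage, T and natural killer cell, B cell, neutrophil, chemokine, and fibroblast and mural lists. It is the highest of them for the proximal tubule, podocyte, and early and heat shock lists.

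The tissue label was checked with markers of other cells. All 10 proximal tubule genes and all 6 podocyte genes passed the filter on dim probes and were tested. Above 0 were 2 of the tubule and 0 of the podocyte genes, with medians of -0.13 and -0.21. In each list 3 genes were lower at an unadjusted p of 0.05, where 5.7% of all features were. The tubule list (smallest p Slc5a12, Slc22a8 and Slc5a2) had mean shifts of -0.13, -0.15 and -0.11 in DPG 1 to 3, and the podocyte list (Ptpro, Wt1 and Nphs1) -0.34, -0.19 and -0.02. The endothelial list (smallest p Ehd3, Pecam1 and Esam) had mean shifts of 0.03, 0.03 and -0.02 in DPG 1 to 3. The red cell and platelet list (Slc4a1, Gp9 and Hba-a1) had 0.02, -0.01 and -0.05, and the fibroblast and mural list (with Tagln and Cspg4) 0.03, -0.04 and 0.13. These are means over each list and not values of the named genes. The median log2 fold changes of the endothelial, red cell and platelet, and fibroblast and mural lists were -0.05, 0.03 and 0.03. Of the 10 endothelial genes 6 were below 0, while Ehd3 had 0.37 ± 0.11 (SE), Pecam1 0.18 ± 0.07 and Esam 0.23 ± 0.12. At an unadjusted p of 0.05, 2 of the 10 were higher and 0 lower, where 6.68% and 5.7% of all features were. The groups did not overlap for 2 of the 10, against 19.7% of all features.

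The mean shifts of some other lists followed the animal order of the leukocyte genes or ran against it. Of 7 tested fat cell genes 4 were above 0, with a median of 0.05. At an unadjusted p of 0.05, 3 were higher and 1 lower, where 6.68% and 5.7% of all features were. The fat cell genes had mean shifts of 0.52, 0.19 and 0.58 in DPG 1 to 3, but median shifts of 0.04, 0.19 and 0.20. Of the 7 genes, 1 was lowest in DPG 2 and 1 highest in DPG 3. Their summed level (log2) ran from 2.74 to 2.90 in control and from 2.89 to 3.07 in DPG. Their defining genes differed in direction, with Adipoq at -0.45 ± 0.14 (SE), Retn at 1.43 ± 0.50 and Cidec at 0.56 ± 0.20, and Lep was not well above background on any array. Retn was detected in 1 of 3 controls, so it was tested through the DPG group, and under normexp it had 0.37. Fabp4, a fatty acid carrier named after its values were seen, had the largest difference of the list, 1.89 ± 0.70 (SE). It read -4.74, -2.18 and -4.26 in the controls and -1.30, -2.45 and -1.77 in DPG 1 to 3. Early response and heat shock genes had 0.18, 0.36 and 0.09, and 5 of 9 genes were highest in DPG 2. Those with the smallest p were Hspb1 at 0.70 ± 0.07, Hspa1a at 1.13 ± 0.35 and Fos at -0.41 ± 0.13 (SE), of which Hspb1 and Hspa1a were highest in DPG 2 and Fos in control 2. The part of either in the leukocyte values was not tested. The number of probes well above background ran from 39556 in control 3 to 43184 in control 2, and DPG 2, with 41663, lay between the other DPG arrays.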

How the data were processed

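Total RNA of the renal cortex was labelled with Cy3 and hybridised to 1 array per animal, per the labels' protocols. The authors scanned and extracted the arrays in Agilent's Feature Extraction software. Its version is 10.7.1.1 per the file headers, and the submitters' processing notes give 10.7. Each deposited intensity is linear, with the background subtracted and a spatial trend removed within the array, per the file headers, and arrays had not been scaled to each other. A deposited table of the whole series, used in 1 alternative, holds the ratio of each spot's signal to about its array's 75th percentile, in the direction of the scanner signal, with column medians from 0.108 to 0.114. The labels do not say how it was scaled.

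From there, log2 signal minus each array's 75th percentile was computed over 61537 probes. A probe was kept if a group's 3 arrays all had it well above background and no array gave it an outlier flag (40383 probes). They were named through the accession in a RefSeq table of GRCr8, where 28206 probes matched 1 symbol and 33331 kept the file's identifier. The file headers name the older build rn4, and no probe coordinates are printed. The brightest kept probe stood for a gene, which gave 29647 features.

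The group difference was tested two-sided by limma (version 3.58.1, R 4.3.3) through lmFit and eBayes and adjusted over all features, with 4 residual and 1.95 prior degrees of freedom. A value after ± is limma's standard error of the log2 fold change. Tested on simulated data for the comparison of DPG with control over 29647 features, the fit made 9 false calls. It found 38% of the genes set to change 1.5-fold, and 78%, 92% and 96% of those set to 2-fold, 4-fold and 8-fold. Genes set to change were drawn at random from all features, with independent noise. The leukocyte genes had a larger median standard error, 0.17 against 0.11, so these rates do not carry over to them. The number of arrays limits the precision.

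The genes, classes and lists were chosen with earlier results of these data known. All 31 genes are named, and of each other list the 3 genes with the smallest p, except some that are not reported here. Myeloid genes are Cd68, Lyz2, C1qa, C1qb, C1qc, Csf1r, Itgam, Cd163, Aif1, Tyrobp, Fcer1g, Cybb, Mrc1, Ctss and Spi1. Lymphoid genes are Cd3e, Cd3g, Cd8a, Cd4 and Cd79b, MHC class II genes are Cd74, RT1-Da and RT1-Ba, and the rest are pan-leukocyte. Alternatives changed the background correction, scaling, filters, probe summary, variance model, weights, a replicate block, the source of values and each animal left out. A slide block could not be fitted. Replicate numbers did not pair the arrays.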

Additional observations from a re-analysis of the deposited data

How the results depend on the processing

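Under the alternatives that kept 6 animals, 19 to 22 genes lay above 0, and the median log2 fold change lay between 0.08 with the mean of a gene's probes and 0.14 with median scaling. The lymphoid difference, 0.19, was 0.37 with probes above background on all arrays, which leaves out Cd3e and Cd79b, and 0.55 as a median over its genes. The MHC class II difference was -0.03 with normexp and -0.0011 with quantile normalization. The SD was larger in DPG for 23 to 25 genes. Of 306 log2 fold changes of the 28 genes under those alternatives 300 kept their sign. The 6 that did not were all near 0: Aif1 at -0.0037 with the mean of its probes, Cd53 at 0.0070 with median scaling, Cd74 at -0.0053 with quantile normalization and -0.0038 with array weights, and Cybb at -0.0099 and RT1-Da at -0.066 with normexp. DPG 2 was lowest for 12 to 18 genes and DPG 3 highest for 17 to 22. At an unadjusted p of 0.05, 1 gene was higher without a filter on dim probes, 1 with an intensity trend and robust variance and 1 with probes above background on all arrays, where 0 were lower and 1 did not overlap (2 genes fewer were tested there). With the replicate number as a block 0 genes were higher, against 2. Same-numbered arrays had correlations of deviations from the group means of -0.02, -0.09 and -0.07, so the numbers gave no pairing, and the block changed no adjusted call. Promoter counts were 14 and 5 in the 250 bases before the start as well, a window added after the data were seen, as were the alternatives of the animal order.

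With each animal left out in turn, the count of features at an adjusted p of 0.05 ran from 0 to 1 (1 without DPG 2), and at an unadjusted p of 0.05 from 2537 to 3914. Leukocyte genes at that p ran from 0 to 10 higher and from 0 to 1 lower, genes above 0 from 15 to 26 and genes not overlapping from 2 to 18. The counts of 10, 26 and 18 came without DPG 2, where 29.1% of all features did not overlap. DPG 2 was the lowest DPG array for most of these genes, so leaving it out was bound to raise most fold changes. The myeloid difference ran from 0.01 to 0.25, the lymphoid from -0.06 to 0.51, the pan-leukocyte from 0.02 to 0.26 and the MHC class II from -0.15 to 0.21. Genes whose log2 fold change turned sign were Aif1 (-0.26 to 0.20), C1qa (-0.092 to 0.28), Cd4 (-0.28 to 0.0024), Cd48 (-0.28 to 0.025), Cd53 (-0.13 to 0.18), Cd68 (-0.0046 to 0.25), Cd74 (-0.13 to 0.17), Coro1a (-0.18 to 0.19), Csf1r (-0.15 to 0.087), Cybb (-0.081 to 0.18), RT1-Da (-0.16 to 0.25), Spi1 (-0.17 to 0.19) and Tyrobp (-0.013 to 0.20). The cause was not tested. Cd3e, Cd79b, Mzb1, Klrd1, Foxp3, Cd86, Retn and Il7r were not well above background on every array, which limits their fold changes. Among other genes, normexp gave 0.36 for C1qc, 0.16 for Cd37, 0.12 for Ptprc, -0.13 for Cyba, -0.19 for Msr1, -0.16 for Fos and 0.37 for Mif.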
